A study of Mus musculus with 6 samples.

Results

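Microglia and macrophage genes were examined in mouse primary astrocyte cultures given human IgG against the water channel aquaporin-4 (AQP4-IgG) or human control IgG (Control-IgG). The genes were 44 names chosen as markers of myeloid cells, some Fc gamma receptors among them. Of these, 42 were found by symbol among the 14147 genes analysed, and Siglech and Mrc1 were not analysed here. The cells of both groups are labelled as wild-type primary astrocytes sampled at 24 h, with 3 libraries numbered 1 to 3 in each group. The labels give neither the strain nor the age of the animals, nor whether a group's 3 libraries stem from independent cultures or animals, so the p-values below reflect only how far these libraries scatter, possibly for technical reasons. The series title speaks of conditioned medium, and the labels do not say whether the IgG was added to these cells directly.

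Microglia are the resident macrophages of the brain. They depend on signalling through the receptor CSF1R and on the transcription factor PU.1, and they commonly persist in astrocyte cultures prepared from whole brain tissue. In the healthy brain they carry a set of homeostatic surface proteins, which activated microglia carry less of, while phagocytic and scavenger receptors mark activated microglia and macrophages. Their Fc gamma receptors bind the constant part of IgG and signal through adaptor chains.

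Levels are FPKM, that is reads or fragments scaled by exon length and library total, so that levels of different genes can be set side by side. The libraries held 20396000 to 20613000 counted reads with AQP4-IgG and 17923000 to 20348000 with Control-IgG, as worked out from the steps of the low values. All 14 astrocyte markers looked up had values in both groups and summed to 585.4 to 662.3 FPKM under AQP4-IgG against 534.9 to 601.6 FPKM under Control-IgG. Of these, 3 rose with AQP4-IgG in the test described below, namely Aqp4 (1.26-fold, adjusted p = 0.0216 in limma) and the glutamate transporter genes Slc1a3 (1.26-fold, adjusted p = 0.0304) and Slc1a2 (1.33-fold, adjusted p = 0.0464). The other 11 did not pass, and 1.46% of all genes tested were called higher. The median log2 fold change of the 14 was 0.122. The part of Aqp4, Slc1a3 and Slc1a2 in the myeloid differences was not tested. The 42 myeloid genes summed to 1320.0 to 1493.2 FPKM under AQP4-IgG against 1291.7 to 1608.4 FPKM under Control-IgG. Without the abundant Lyz2 and Cd9 the sums were 452.8 to 508.4 FPKM under AQP4-IgG against 433.8 to 547.6 FPKM under Control-IgG, ranges that overlap. Myeloid RNA was thus present in both groups. In contrast, 0 of 13 lymphocyte and granulocyte markers had values to analyse here. These are bulk cultures, in which fewer myeloid cells and less RNA of a gene per cell cannot be told apart.

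Among themselves the members spanned means of 0.476 to 829.0 FPKM over the 6 libraries. Lyz2, the lysozyme of mouse macrophages, was the most abundant, at 825.0 ± 55.0 FPKM under AQP4-IgG against 833.0 ± 113.0 FPKM under Control-IgG (SD, n = 3 each, as for all means below). The tetraspanin gene Cd9, which astrocytes also express, followed at 101.0 ± 4.27 FPKM under AQP4-IgG against 97.9 ± 2.38 FPKM under Control-IgG. Next came the lysosomal protease gene Ctss and Tyrobp, which encodes the adaptor DAP12, with means over the 6 libraries of 77.5 and 52.0 FPKM. At the low end stood Ptprc, the leukocyte antigen CD45, with 0.973 FPKM over the 6 libraries, the lysophosphatidylserine receptor gene Gpr34 with 0.555 FPKM and Itgax, the integrin CD11c, with 0.476 FPKM. The level of Ptprc is scaled by 18313 exon bases, the most of all members. It rested on 324 to 351 reads with AQP4-IgG and 345 to 428 reads with Control-IgG, so its reads were not few. The ADP receptor gene P2ry12, a defining marker of brain microglia, reached 1.28 FPKM.

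**Figure D1:**
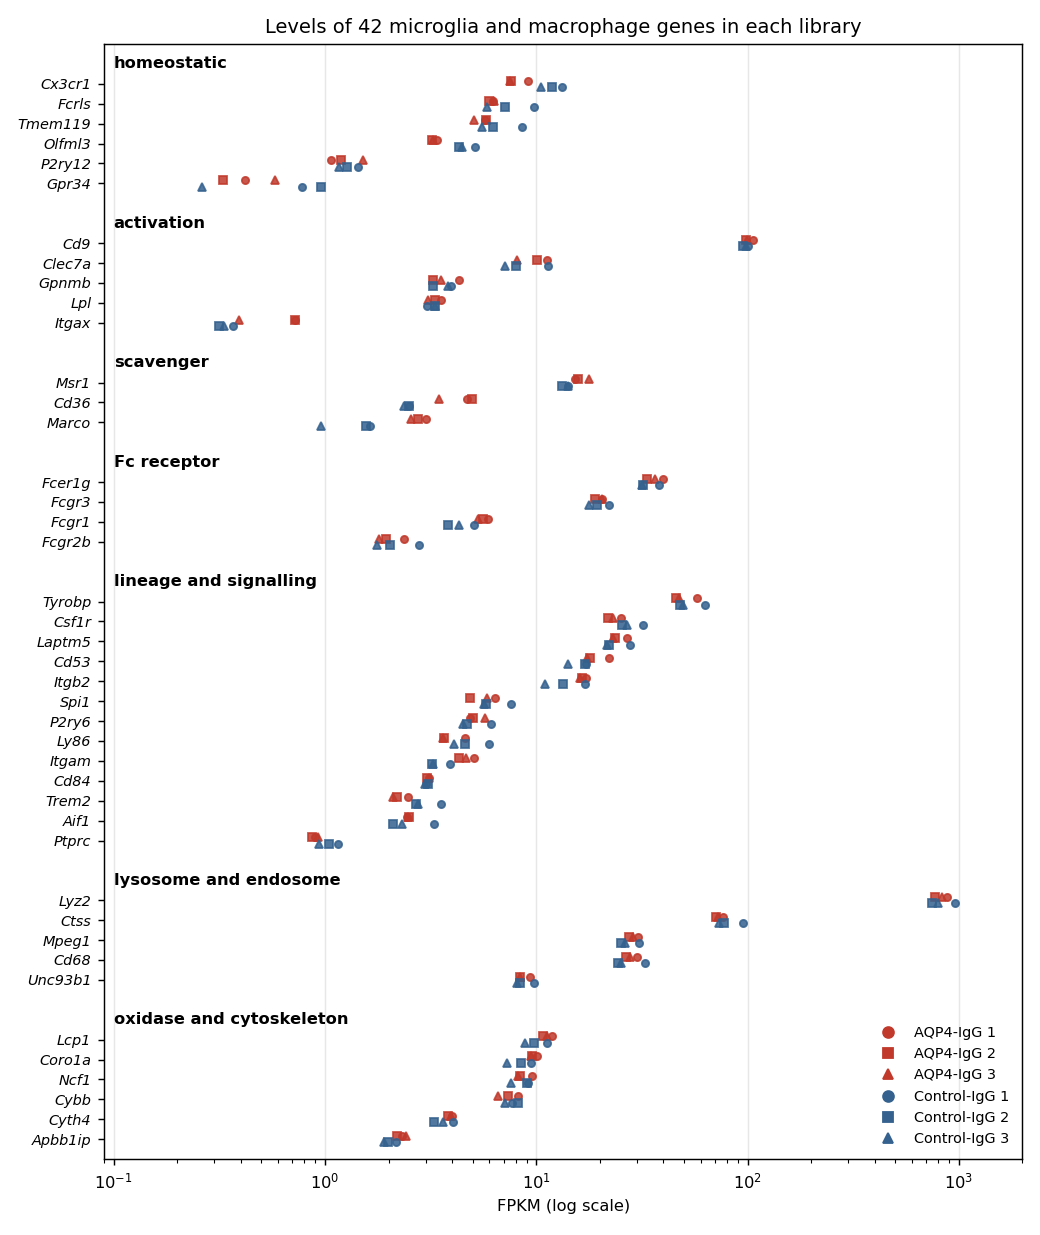
FPKM of the 42 genes in each of the 6 libraries, on a log scale, ordered by mean level within 7 roles. Red marks are AQP4-IgG and blue marks Control-IgG, with the libraries 1 to 3 as circle, square and triangle. Lyz2 lies at means of 825.0 and 833.0 FPKM and Itgax and Gpr34 lie below 1 FPKM, and in Cx3cr1 and Olfml3 the red marks lie left of the blue ones, in Cd36 and Marco right of them.

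The comparison asks which of these genes differed between AQP4-IgG and Control-IgG cultures. In short, Cx3cr1 and Olfml3 fell, Cd36 and Marco rose, and the other tested members did not pass the test. The test was limma on log2(FPKM + 1) over all genes whose 6 libraries averaged 1 FPKM or more, and a change had to reach a Benjamini-Hochberg adjusted p under 0.05 over all 12334 genes tested. Of the 42 genes, 39 passed this filter on low values, all but Gpr34, Itgax and Ptprc. Of the 39, 2 rose, 2 fell and 35 did not pass, against 2.09% of all genes tested called in either direction, 1.46% called higher and 0.632% called lower. The median log2 fold change was 0.024 over the 39 and 0.0 over all genes tested. The 2 that fell both belong to the 7 genes grouped here as homeostatic and the 2 that rose both belong to the 4 scavenger receptors. The added 1 FPKM shrinks the log2 fold changes of genes with low levels.

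**Figure D2:**
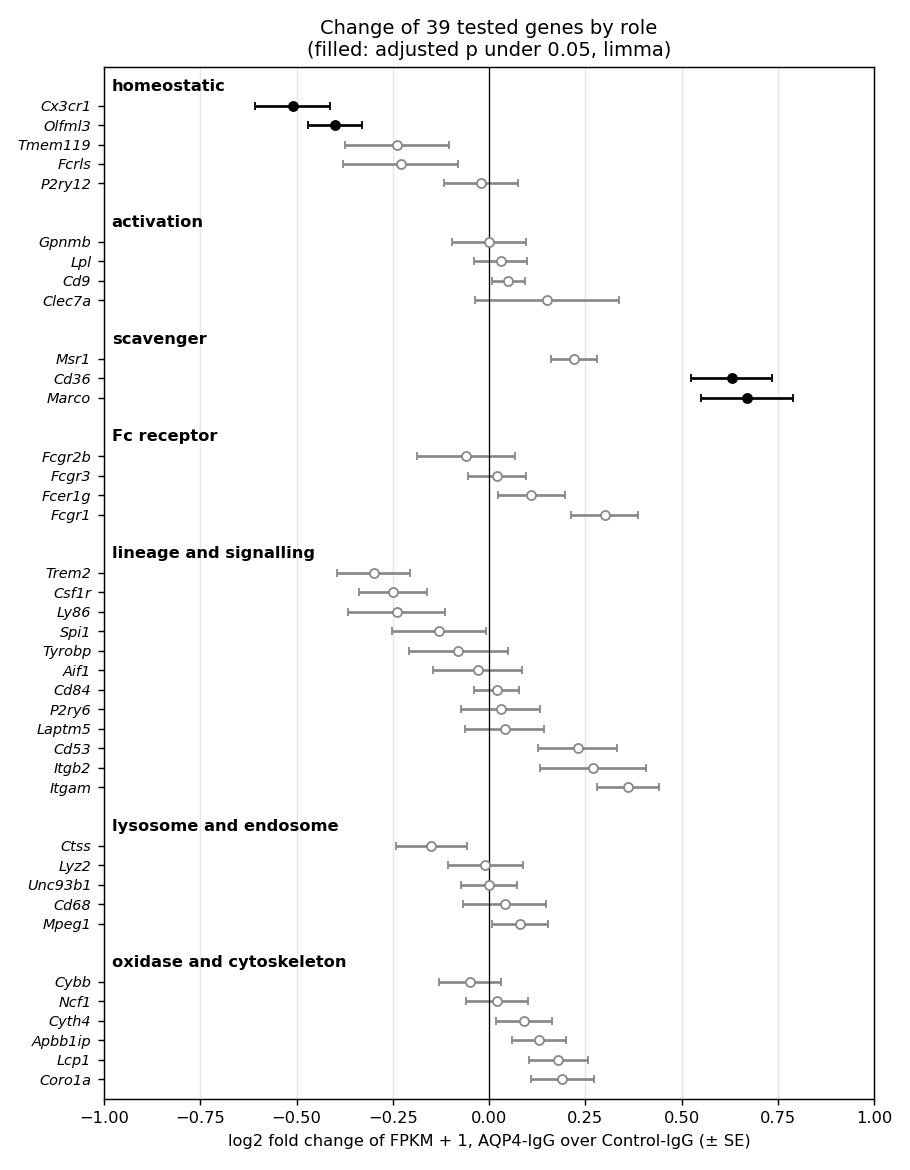
Log2 fold change of FPKM + 1, AQP4-IgG over Control-IgG, with its standard error, for the 39 tested genes by role. Filled points passed an adjusted p of 0.05. The homeostatic genes lie below 0, from -0.51 to -0.02, and the scavenger receptors above it, from 0.22 to 0.67.

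All 5 tested homeostatic genes had negative log2 fold changes, and 2 of them fell. Cx3cr1, the receptor for the chemokine fractalkine (ENSMUSG00000052336, minus strand of chromosome 9, 119901616 to 120069879 in GRCm38), had 9.19, 7.59 and 7.51 FPKM in AQP4-IgG libraries 1 to 3. In Control-IgG libraries 1 to 3 it had 13.3, 11.9 and 10.5 FPKM. Every AQP4-IgG library lay below every Control-IgG library. Cx3cr1 fell 1.47-fold, to 8.09 ± 0.95 FPKM under AQP4-IgG against 11.9 ± 1.4 FPKM under Control-IgG (log2 fold change -0.51, SE 0.0968, adjusted p = 0.0427 in limma). Behind these values stood 697 to 849 reads with AQP4-IgG and 952 to 1222 reads with Control-IgG. Fitting limma without its trend ended the call (adjusted p = 0.0698), as did testing all 14147 genes (adjusted p = 0.0537). It was also lost without AQP4-IgG 2 (adjusted p = 0.164), AQP4-IgG 3 (adjusted p = 0.118), Control-IgG 1 (adjusted p = 0.0555) or Control-IgG 2 (adjusted p = 0.164).

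Olfml3, a secreted olfactomedin-like protein enriched in microglia (ENSMUSG00000027848, minus strand of chromosome 3, 103722222 to 103738001), had 3.38, 3.2 and 3.24 FPKM in the AQP4-IgG libraries. The Control-IgG libraries had 5.15, 4.3 and 4.45 FPKM, again with no overlap between the groups. Olfml3 fell 1.41-fold to 3.27 ± 0.0938 FPKM under AQP4-IgG, against 4.63 ± 0.45 FPKM under Control-IgG (log2 fold change -0.4, SE 0.0712, adjusted p = 0.0304 in limma). The call held in all 8 other fits that kept the 6 libraries. With 1 library left out it held only without Control-IgG 1 (adjusted p = 0.0437), and the adjusted p was 0.0695 to 0.136 when any of the other 5 libraries (AQP4-IgG 1, 2 or 3, Control-IgG 2 or 3) was left out.

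The other homeostatic genes did not pass. Tmem119, a microglial membrane protein, had 5.71, 5.76 and 5.09 FPKM under AQP4-IgG against 8.58, 6.24 and 5.53 FPKM under Control-IgG (log2 fold change -0.24, adjusted p = 0.54 in limma). Fcrls, an Fc receptor-like scavenger protein of mouse microglia, had 6.23, 5.97 and 6.32 FPKM under AQP4-IgG against 9.73, 7.1 and 5.87 FPKM under Control-IgG (log2 fold change -0.23, adjusted p = 0.617). In both genes Control-IgG 1 stood above the other 5 libraries and Control-IgG 3 lay within or near the range of the AQP4-IgG libraries. P2ry12 averaged 1.26 ± 0.234 FPKM under AQP4-IgG against 1.29 ± 0.128 FPKM under Control-IgG (log2 fold change -0.02, adjusted p = 0.965), from 56 to 80 reads with AQP4-IgG and 58 to 74 reads with Control-IgG. Gpr34 rested on 14 to 25 reads with AQP4-IgG and 11 to 36 reads with Control-IgG, the fewest of all members with recovered reads. Without the filter its log2 fold change was -0.19 (SE 0.167, adjusted p = 0.741 in limma).

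The 3 scavenger receptors with values lay higher with AQP4-IgG, and each AQP4-IgG library exceeded each Control-IgG library in all 3. Of all genes tested, 10.4% lay higher in this way. The roles were set with results of these data known. Cd36, a receptor for oxidised lipoproteins and fatty acids (ENSMUSG00000002944, minus strand of chromosome 5, 17781690 to 17888801), had 4.71, 4.96 and 3.47 FPKM under AQP4-IgG. With Control-IgG it had 2.49, 2.49 and 2.36 FPKM. Cd36 rose 1.79-fold to 4.38 ± 0.796 FPKM under AQP4-IgG, against 2.45 ± 0.0744 FPKM under Control-IgG (log2 fold change 0.63, SE 0.105, adjusted p = 0.0229 in limma). Its control libraries were tight, and AQP4-IgG 3 stood below the other AQP4-IgG libraries. The call held in all 8 other fits of the 6 libraries and without AQP4-IgG 3 (adjusted p = 0.00889) or Control-IgG 1 (adjusted p = 0.0372). It was lost without AQP4-IgG 1 (adjusted p = 0.109), AQP4-IgG 2 (adjusted p = 0.0942), Control-IgG 2 (adjusted p = 0.1) or Control-IgG 3 (adjusted p = 0.0973).

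Marco, a class A scavenger receptor that binds bacteria and particles (ENSMUSG00000026390, minus strand of chromosome 1, 120474538 to 120505024), had 3.01, 2.75 and 2.55 FPKM under AQP4-IgG. With Control-IgG it had 1.63, 1.57 and 0.958 FPKM, and Control-IgG 3 was the lowest of all. Marco rose 2.0-fold to 2.77 ± 0.235 FPKM under AQP4-IgG, against 1.39 ± 0.372 FPKM under Control-IgG (log2 fold change 0.67, SE 0.119, adjusted p = 0.0284 in limma). The gene rested on 101 to 119 reads with AQP4-IgG and 37 to 64 reads with Control-IgG. With a pseudocount of 0.1 in place of 1 its log2 fold change was 0.98, and limma-voom on recovered reads gave 1.03. The call was lost without the trend (adjusted p = 0.0501) and without AQP4-IgG 1, 2 or 3 or Control-IgG 2 (adjusted p of 0.125, 0.116, 0.0561 and 0.0796). Msr1, the scavenger receptor SR-A and the most abundant of the 3, had 15.3, 15.8 and 17.7 FPKM under AQP4-IgG against 14.1, 13.3 and 14.1 FPKM under Control-IgG. Its log2 fold change of 0.22 (SE 0.06) did not pass (adjusted p = 0.132), though limma-voom on recovered reads called it (adjusted p = 0.0336).

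**Figure D3:**
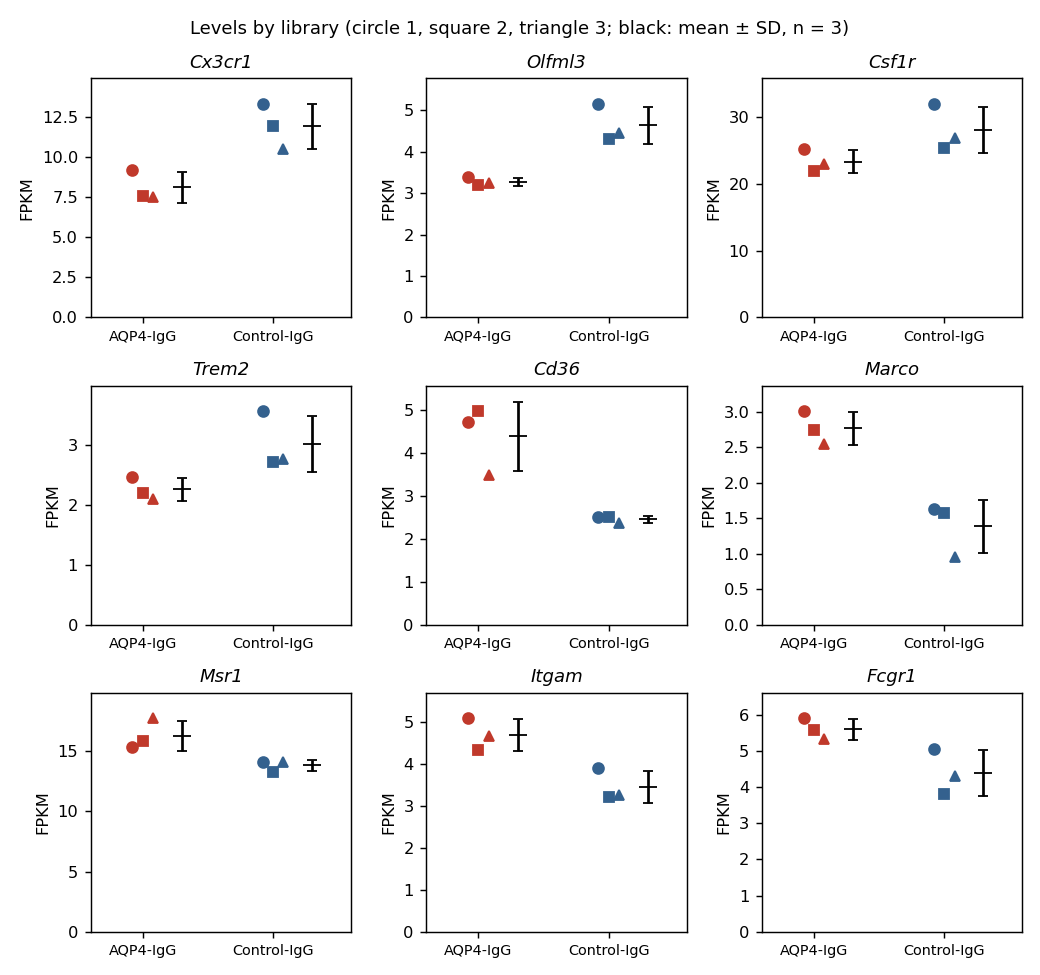
FPKM of 9 genes in each library, AQP4-IgG left and Control-IgG right, with the mean and SD of 3 libraries in black. In the first 4 panels every AQP4-IgG value lies below every Control-IgG value, in the other 5 above. Of the 9, Cx3cr1, Olfml3, Cd36 and Marco passed the test.

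The stretches upstream of the annotated starts of Cx3cr1 and Marco are shown because these genes had the lowest and the highest log2 fold change of the 39 tested members. They are the 250 bases before the RefSeq start in GRCm38.p6, read 5′ to 3′ on the minus strand, with chr9:120068297-120068546 for Cx3cr1 and chr1:120505025-120505274 for Marco. Capitals mark GAGGAA, the core bound by PU.1, searched on both strands.
Cx3cr1: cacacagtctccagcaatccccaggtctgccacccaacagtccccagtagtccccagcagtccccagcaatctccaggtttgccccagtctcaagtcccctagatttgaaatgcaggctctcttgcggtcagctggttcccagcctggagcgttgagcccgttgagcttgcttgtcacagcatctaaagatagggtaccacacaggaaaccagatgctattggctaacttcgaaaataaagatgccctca
Marco: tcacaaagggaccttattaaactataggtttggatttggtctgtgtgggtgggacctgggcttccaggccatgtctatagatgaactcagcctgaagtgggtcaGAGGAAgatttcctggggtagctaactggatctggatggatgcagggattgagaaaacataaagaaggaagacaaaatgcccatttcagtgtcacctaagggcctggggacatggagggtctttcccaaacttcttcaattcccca
Marco held 1 match, at positions -146 to -141 relative to its start, and Cx3cr1, Olfml3 and Cd36 held 0 in this window. The letters occur in 23.3% of the 32851 RefSeq promoter stretches of this length, and in 15 of the 37 that belong to the 32 members matched by symbol. The interferon response motif, 2 GAAA blocks with any 2 bases between them, occurs in 2.98% of all stretches and in those of Ctss, Ncf1, Aif1 and Cybb among the members. The STAT motif TTCNNNGAA occurs in 7.02% of all and in those of Fcgr1 and Ncf1. These motifs were also searched on both strands. For Cx3cr1 and Cd36 the RefSeq start lies inside the gene span given above, so other annotated starts lie outside these stretches.

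Of the 5 activation genes 4 were tested and 0 passed, against 2.09% of all genes tested. The median log2 fold change of the 4 was 0.036. Cd9 had 106.0, 98.3 and 99.0 FPKM under AQP4-IgG against 100.2, 95.5 and 97.9 FPKM under Control-IgG (log2 fold change 0.05, adjusted p = 0.754 in limma). Clec7a, the beta-glucan receptor dectin-1, had 11.3, 10.1 and 8.13 FPKM under AQP4-IgG against 11.4, 7.99 and 7.12 FPKM under Control-IgG (log2 fold change 0.15, adjusted p = 0.832). The groups overlapped in both. Gpnmb, a lysosomal glycoprotein of lipid-laden macrophages, averaged 3.7 ± 0.537 FPKM under AQP4-IgG against 3.68 ± 0.369 FPKM under Control-IgG, and Lpl, lipoprotein lipase, averaged 3.31 ± 0.243 FPKM under AQP4-IgG against 3.23 ± 0.161 FPKM under Control-IgG. Itgax had 0.721, 0.725 and 0.394 FPKM under AQP4-IgG against 0.368, 0.314 and 0.332 FPKM under Control-IgG, with no overlap but only 39 to 71 reads against 27 to 36. Without the filter its log2 fold change was 0.26 (SE 0.111, adjusted p = 0.375 in limma).

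The 4 Fc receptor genes of the list were all expressed in both groups, and 0 of 4 passed the test, against 2.09% of all genes tested. Fcgr4, an Fc gamma receptor gene outside the list, averaged 2.05 ± 0.363 FPKM under AQP4-IgG against 2.35 ± 0.277 FPKM under Control-IgG. Its groups overlapped and it did not pass (log2 fold change -0.14, adjusted p = 0.667 in limma). Fcer1g, the common gamma chain through which activating Fc receptors signal, was the most abundant, with 39.7, 33.5 and 36.6 FPKM under AQP4-IgG against 38.2, 31.9 and 31.5 FPKM under Control-IgG (log2 fold change 0.11, adjusted p = 0.698 in limma). Fcgr3, a low-affinity activating receptor, had 20.4, 19.0 and 20.5 FPKM under AQP4-IgG against 22.1, 19.4 and 17.7 FPKM under Control-IgG (log2 fold change 0.02, SE 0.0748, adjusted p = 0.952). In these genes the groups overlapped, and Control-IgG 1 was the highest control library.

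Fcgr1, the high-affinity IgG receptor, had 5.89, 5.57 and 5.32 FPKM under AQP4-IgG against 5.05, 3.81 and 4.29 FPKM under Control-IgG. Here no AQP4-IgG library overlapped the controls and the means differed 1.28-fold, but it did not pass (log2 fold change 0.3, SE 0.0861, adjusted p = 0.149 in limma). Without Control-IgG 1 the adjusted p was 0.0322, and over its other 13 fits it lay above the threshold. Fcgr2b, the inhibitory receptor, had 2.37, 1.94 and 1.8 FPKM under AQP4-IgG against 2.79, 2.03 and 1.76 FPKM under Control-IgG (log2 fold change -0.06, adjusted p = 0.906). Within libraries the ratio of Fcgr1 to Fcgr2b was 2.49, 2.87 and 2.95 with AQP4-IgG and 1.81, 1.88 and 2.44 with Control-IgG, a pair set side by side after its values were seen. Of the 50-base stretches of Fcgr3 transcripts 9.58% also occur in Fcgr2b, so the split of reads between these is uncertain to that extent.

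Of the 12 tested lineage and signalling genes, 6 had positive and 6 negative log2 fold changes, with a median of -0.002. Of the 12, 0 passed, against 2.09% of all genes tested. Csf1r, the receptor for CSF1 and IL-34 on which microglia depend, had 25.2, 21.9 and 23.0 FPKM under AQP4-IgG against 32.0, 25.4 and 26.9 FPKM under Control-IgG (log2 fold change -0.25, SE 0.0875, adjusted p = 0.247 in limma). Trem2, the lipid receptor that signals through DAP12, had 2.47, 2.2 and 2.1 FPKM under AQP4-IgG against 3.56, 2.71 and 2.77 FPKM under Control-IgG (log2 fold change -0.3, adjusted p = 0.198). In both genes the groups did not overlap. Of the exon bases of Csf1r 15.12% are also covered by Hmgxb3 on the opposite strand, and the strand setting of the counting is not known here. Tyrobp itself had 57.8, 46.0 and 47.5 FPKM under AQP4-IgG against 63.1, 48.1 and 49.5 FPKM under Control-IgG, which overlap (log2 fold change -0.08, adjusted p = 0.882).

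The chains of complement receptor 3 lay on the other side of 0. Itgam, the integrin CD11b, had 5.08, 4.33 and 4.66 FPKM under AQP4-IgG against 3.89, 3.2 and 3.26 FPKM under Control-IgG, with no overlap. Its means differed 1.36-fold, and limma gave 0.36 on the log2 scale (SE 0.0809) with an adjusted p of 0.0707. Limma-voom on recovered reads put Itgam past the threshold (adjusted p = 0.0124). Limma-voom after quantile normalization, with robust variance turned off, also did so (adjusted p = 0.0194), as did leaving out Control-IgG 1 (adjusted p = 0.026). Of its exon bases 68.67% also belong to Gm49368 on the same strand, so the count of Itgam is uncertain. Itgb2, the shared beta chain CD18, had 17.2, 16.4 and 16.1 FPKM under AQP4-IgG against 17.0, 13.4 and 11.0 FPKM under Control-IgG (log2 fold change 0.27, adjusted p = 0.489). Without Control-IgG 1 its adjusted p was 0.0278.

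Among the rest of this role, the tetraspanin gene Cd53 had 22.0, 17.9 and 17.3 FPKM under AQP4-IgG against 17.2, 17.0 and 14.2 FPKM under Control-IgG (log2 fold change 0.23, adjusted p = 0.408 in limma). Its groups did not overlap, though AQP4-IgG 3 and Control-IgG 1 were nearly equal. Ly86, the co-receptor MD-1, had a log2 fold change of -0.24 (adjusted p = 0.491), and Spi1, which encodes PU.1, one of -0.13 (adjusted p = 0.765). Laptm5, Cd84, P2ry6 and Aif1, which encodes the calcium-binding protein IBA1, lay between -0.03 and 0.04. Ptprc had 0.897, 0.867 and 0.93 FPKM under AQP4-IgG against 1.15, 1.05 and 0.942 FPKM under Control-IgG, and without the filter its log2 fold change was -0.11 (adjusted p = 0.674).

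Of the 5 lysosomal and endosomal genes 0 passed, against 2.09% of all genes tested, so calls are hardly to be had in so few genes. In each of the 5 the groups overlapped. Over all genes tested, the groups did not overlap in 19.0%. Lyz2 had 878.8, 768.9 and 828.1 FPKM under AQP4-IgG against 960.5, 745.8 and 793.5 FPKM under Control-IgG (log2 fold change -0.01, SE 0.0968, adjusted p = 0.987 in limma). Of its 50-base stretches 15.39% also occur in Lyz1. Ctss had 76.6, 70.9 and 72.6 FPKM under AQP4-IgG against 94.9, 77.4 and 72.9 FPKM under Control-IgG (log2 fold change -0.15, adjusted p = 0.608). The log2 fold changes of Cd68, the pore-forming Mpeg1 and the endosomal chaperone gene Unc93b1 lay between -0.003 and 0.08.

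Genes of the phagocyte oxidase and of the leukocyte cytoskeleton had 0 of 6 past the test, against 2.09% of all genes tested. The oxidase subunits Cybb and Ncf1 had log2 fold changes of -0.05 (adjusted p = 0.883 in limma) and 0.02 (adjusted p = 0.957). Ncf1 shares 11.14% of its exon bases with Gtf2ird2 on the opposite strand, and Cd9 shares 10.67% with Gm26728. The actin-bundling Lcp1 had 11.9, 10.8 and 11.3 FPKM under AQP4-IgG against 11.2, 9.74 and 8.88 FPKM under Control-IgG (log2 fold change 0.18, adjusted p = 0.356). Coro1a, coronin 1A, had 10.1, 9.57 and 9.4 FPKM under AQP4-IgG against 9.48, 8.46 and 7.31 FPKM under Control-IgG (log2 fold change 0.19, adjusted p = 0.369). In both genes Control-IgG 1 lay within the range of the AQP4-IgG libraries and the other controls below it. Apbb1ip, an integrin-activating adaptor, had 2.32, 2.19 and 2.41 FPKM under AQP4-IgG against 2.17, 1.98 and 1.9 FPKM under Control-IgG, narrowly without overlap (log2 fold change 0.13, adjusted p = 0.487). Cyth4 had a log2 fold change of 0.09. In all, the groups did not overlap in 11 of the 39 tested members, 7 higher and 4 lower with AQP4-IgG. Over all genes tested this was so for 19.0%, with 10.4% higher and 8.58% lower.

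The roles differed in how they stood between the groups and between libraries. The median log2 fold change was -0.238 over the 5 tested homeostatic genes and 0.154 over the 7 tested activation and scavenger genes, in which the 3 scavenger receptors had 0.632 and the 4 activation genes 0.036. Relative to the Control-IgG mean, the 6 homeostatic genes averaged -0.244, -0.304 and -0.242 log2 units in AQP4-IgG 1 to 3 and 0.192, 0.004 and -0.197 in Control-IgG 1 to 3. The 8 activation and scavenger genes averaged 0.341, 0.263 and 0.149 in AQP4-IgG 1 to 3 and 0.081, -0.023 and -0.058 in Control-IgG 1 to 3. Within a library, the mean log2(FPKM + 1) of the homeostatic genes minus that of the activation and scavenger genes was -0.93, -0.91 and -0.73 with AQP4-IgG. With Control-IgG it was -0.23, -0.32 and -0.48. The mean difference between the groups was -0.51, against a pooled SD of 0.118 between libraries. Since the roles were set with results of these data known, these are descriptions without a test.

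Control-IgG 1 stood apart in its group. It was the highest control library in 38 of the 42 genes (90.5%), against 39.1% of all genes tested. AQP4-IgG 1 was the highest of its group in 30 of the 42 (71.4%), against 40.1% of all genes tested. Over the 42 genes, the mean deviation from the Control-IgG mean was 0.102, -0.014 and -0.007 log2 units in AQP4-IgG 1 to 3 and 0.158, -0.046 and -0.112 in Control-IgG 1 to 3. Without Control-IgG 1, 5 members passed upward (Cd36, Marco, Itgam, Fcgr1 and Itgb2) and 1 downward (Olfml3), against 3.17% of all genes called in that fit. The part of this library in the results above was not tested further. The share of all genes called was 0.657%, 0.535% and 1.4% when AQP4-IgG 1, 2 or 3 was left out. Leaving out Control-IgG 2 gave 0.446%, and leaving out Control-IgG 3 gave 0.949%. With all 6 libraries it was 2.3% after median scaling, 1.44% without a trend, 2.14% without robust variance, 1.63% without the filter, 4.69% among genes averaging 10 FPKM or more and 2.03% with a pseudocount of 0.1. It was 4.92% with the replicate number as a block, 4.23% in limma-voom on recovered reads and 4.2% in limma-voom after quantile normalization, robust variance turned off.

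**Figure D4:**
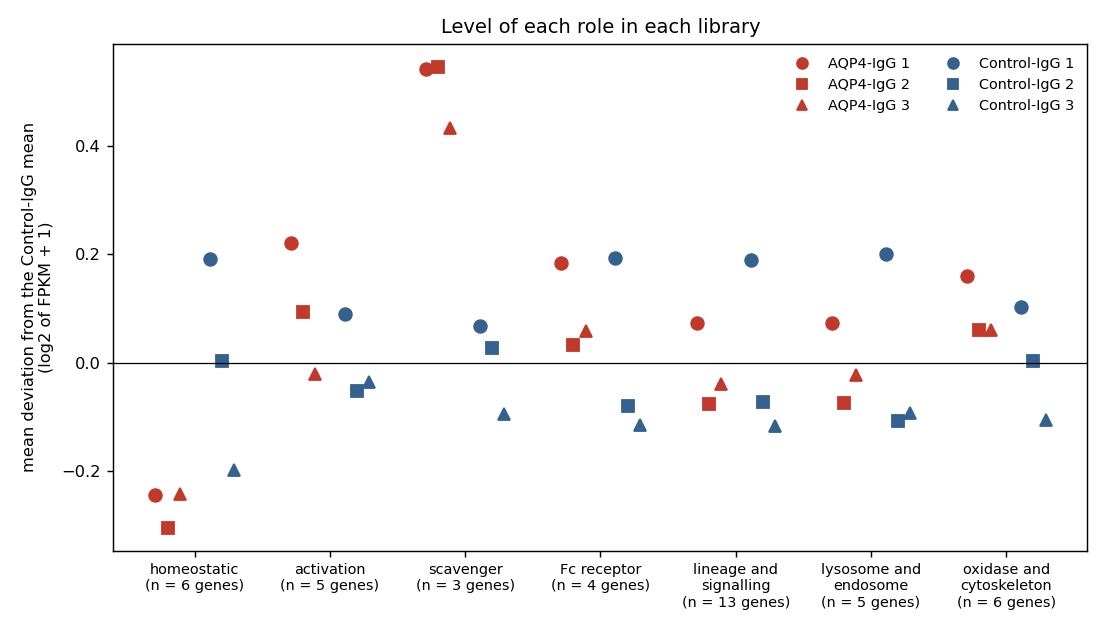
Mean deviation from the Control-IgG mean, in log2 units of FPKM + 1, over the genes of each role in each library, with AQP4-IgG left of Control-IgG in each role. In the scavenger role all 3 AQP4-IgG libraries lie above the Control-IgG libraries and in the homeostatic role all 3 lie below them. In the lineage and lysosome roles Control-IgG 1 lies above the other 5 libraries.

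Ratios within a library do not depend on its overall myeloid RNA, as far as both genes come from the same cells. The ratio of Cx3cr1 to Marco was 3.05, 2.76 and 2.95 with AQP4-IgG and 8.16, 7.6 and 11.0 with Control-IgG. The ratio of Cx3cr1 to Cd36 was 1.95, 1.53 and 2.16 with AQP4-IgG and 5.35, 4.79 and 4.46 with Control-IgG. The ratio of Itgam to Csf1r was 0.201, 0.198 and 0.203 with AQP4-IgG and 0.122, 0.126 and 0.121 with Control-IgG, so it varied little within each group. Set against Lyz2, whose groups overlapped, Cx3cr1 stood at 10.5, 9.87 and 9.06 FPKM per 1000 FPKM of Lyz2 with AQP4-IgG and at 13.9, 16.0 and 13.3 with Control-IgG. These pairs were chosen after their values were seen and carry no test. Marco, Cd36 and Itgam lay higher and Cx3cr1 and Csf1r lower in every AQP4-IgG library. Ratios between genes of these 2 kinds therefore had to separate the groups.

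The ligands of the member receptors were measured in the same libraries. Cx3cl1, fractalkine, the ligand of Cx3cr1, had 25.4, 23.0 and 20.4 FPKM under AQP4-IgG against 14.7, 10.9 and 10.6 FPKM under Control-IgG, a 1.9-fold rise (adjusted p = 0.0304 in limma). The ratio of Cx3cl1 to Cx3cr1 was therefore 2.77, 3.03 and 2.72 with AQP4-IgG and 1.11, 0.915 and 1.0 with Control-IgG. How the Cx3cl1 call fared with single libraries left out was not looked up here. Csf1, a growth factor for macrophages, had 414.2, 393.8 and 404.2 FPKM under AQP4-IgG against 375.3, 340.5 and 307.8 FPKM under Control-IgG (log2 fold change 0.25, adjusted p = 0.129). Il34, the other ligand of the CSF1 receptor, had 18.1, 14.4 and 16.0 FPKM under AQP4-IgG against 13.6, 11.2 and 14.1 FPKM under Control-IgG (log2 fold change 0.3, adjusted p = 0.233). In Csf1 and Il34 every AQP4-IgG library lay above every Control-IgG library.

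**Figure D5:**
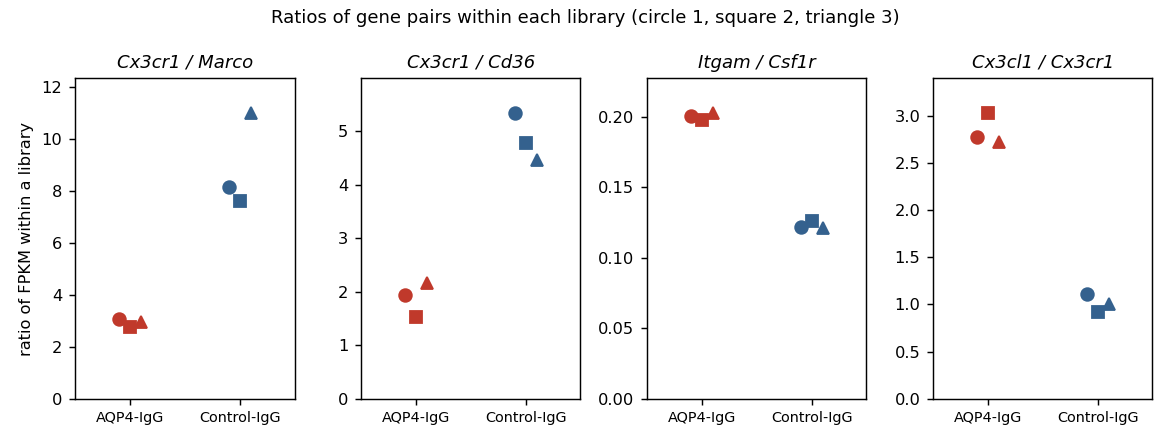
Ratios of FPKM of 4 gene pairs within each library, AQP4-IgG left and Control-IgG right, on axes from 0. Each pair sets a gene with every AQP4-IgG library above the controls against a gene with every AQP4-IgG library below them. The groups therefore had to separate in all 4 pairs. The ratio of Cx3cr1 to Marco lies near 3 with AQP4-IgG and between 7.6 and 11.0 with Control-IgG. The ratio of Cx3cl1 to Cx3cr1 lies between 2.72 and 3.03 with AQP4-IgG and near 1 with Control-IgG.

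Other myeloid genes outside the member list were counted in 4 lists of 83 names, of which 70 were tested. In these, 1 rose, 1 fell and 68 did not pass, with a median log2 fold change of -0.012. Over all genes tested 2.09% were called in either direction, 1.46% higher and 0.632% lower, so few calls are to be had in any list of this size. Of 21 tested microglia identity genes, 0 rose and 1 fell: Vsir, the checkpoint protein VISTA, fell 1.22-fold to 23.6 ± 1.06 FPKM under AQP4-IgG, against 28.9 ± 0.522 FPKM under Control-IgG (adjusted p = 0.0179 in limma). Of 23 tested genes of phagocytosis and disease-associated microglia, 1 rose and 0 fell: Pros1, protein S, a bridge between dying cells and TAM receptors, rose 1.39-fold to 20.6 ± 0.326 FPKM under AQP4-IgG, against 14.8 ± 0.749 FPKM under Control-IgG (adjusted p = 0.00435). Of 13 tested genes of ITAM and Fc receptor signalling and of 13 of the myeloid growth factor axis, 0 passed.

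Of 20 markers of border macrophages and monocytes, 8 had values and 6 were tested. The 8 summed to 49.9 to 55.7 FPKM under AQP4-IgG against 44.2 to 52.7 FPKM under Control-IgG. Pf4, platelet factor 4, looked up after the lists were counted, was the 1 that passed. It rose 1.72-fold to 15.4 ± 1.97 FPKM under AQP4-IgG, against 8.97 ± 1.62 FPKM under Control-IgG (adjusted p = 0.0445 in limma). The median log2 fold change of the 6 was -0.102. Ms4a6c, Stab1, Ms4a7 and Ms4a6d lay lower, at -0.34, -0.15, -0.13 and -0.07, and Cd14 lay at 0.03. Of all genes tested, 1.46% were called higher and 0.632% lower. Cd163, Lyve1, Ccr2 and Ly6c2 of that list were not analysed here. Of the 6 fibroblast and mural markers with values, Acta2, smooth muscle actin, was the 1 that passed. It fell 1.3-fold to 2130.0 ± 173.0 FPKM under AQP4-IgG, against 2780.0 ± 147.0 FPKM under Control-IgG (adjusted p = 0.0243 in limma). The other 5 summed to 66.6 to 76.3 FPKM under AQP4-IgG against 66.6 to 77.0 FPKM under Control-IgG, ranges that overlap. Of these, Tagln had 7.31, 7.65 and 8.2 FPKM under AQP4-IgG against 9.67, 9.85 and 8.5 FPKM under Control-IgG. Its groups did not overlap, but it did not pass (log2 fold change -0.24, adjusted p = 0.129 in limma). In Col1a1, Col1a2, Col3a1 and Pdgfrb the groups overlapped. The part of Acta2 in the differences above was not tested.

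The authors' deposited table gives 5 of the 42 members an adjusted p under 0.05, against 2.91% of its rows. These are Olfml3 (log2 fold change -0.51, adjusted p = 0.00662), Cx3cr1 (-0.57, adjusted p = 0.00637), Cd36 (0.81, adjusted p = 0.00916), Marco (1.0, adjusted p = 0.0263) and Itgam (0.43, adjusted p = 0.0418), all as that authors' deposited table gives them. For Msr1, Csf1r, Trem2 and Fcgr1 the authors' deposited table gives adjusted p of 0.138, 0.159, 0.118 and 0.264.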

How the data were processed

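Per the labels' protocols, total RNA came from a Qiagen RNeasy column and was turned into SMARTER mRNA-Seq libraries. The submitters' processing notes name GRCm38 and mm10; aligner, counter and strand setting: not given in the sources used here. The deposited table holds FPKM by the authors for 14147 genes, a unit inferred from the values: multiplied by union exon length in GENCODE M21, 98.99% to 99.14% of values under 200 reads were whole within 0.1 reads, over 13306 genes with equal coordinates. The larger group mean of each row is at least 0.5001 FPKM, so lower genes were not analysed here. Csf1r and Mpeg1 differ in coordinates from M21 and have no recovered reads. The log2 fold changes and p-values of the authors are as deposited, and their method is not given. Of the per-sample columns, 0 stayed unmapped: control columns match their labels by word and number, and the case columns were taken as AQP4-IgG 1 to 3.

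The main test was limma 3.58.1 (trend, robust) in R 4.3.3 on log2(FPKM + 1), over the 12334 genes averaging 1 FPKM or more, tested on simulated data. An exact permutation test of 3 against 3 cannot go below 0.1, so none was used. Replicates differed by more than sampling noise (mean chi-square per gene of 3.78 to 6.94 on recovered reads). Alternatives were median scaling, no trend, no robust variance, all genes unfiltered, only genes averaging 10 FPKM or more, 0.1 as pseudocount, a block on replicate number, each library left out, limma-voom on recovered reads, and limma-voom after quantile normalization, robust variance turned off. Members, roles and lists were chosen with earlier results of these data known. Every member is accounted for; full values were set for members past the threshold, without overlap, of the Fc receptor role or among the 2 most abundant of a role, and for up to 3 called genes of each other myeloid list with Cx3cl1, Csf1 and Il34. Promoter stretches are from RefSeq (GRCm38.p6).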

Additional observations from a re-analysis of the deposited data

How the results depend on the processing

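Counts of calls depended on single libraries and on the variance model. Leaving out 1 library at a time gave 55 to 391 calls over all genes, against 258 with all 6. It gave 0 to 5 members that rose, 0 to 1 that fell and 1 to 5 other myeloid genes. Which genes outside the member list (such as Cx3cl1, Vsir, Pros1, Pf4, Acta2 and Slc1a2) lost their call was not looked up. The lowest counts over all genes came without Control-IgG 2 (55) and AQP4-IgG 2 (66), and the highest without Control-IgG 1. Limma-voom on recovered reads called 489 genes, 4 members upward and 6 other myeloid genes, and with quantile normalization and no robust variance, 2 choices changed together, 485 genes and 7 other myeloid genes. Without a trend 1 member rose and 1 fell, without the filter 1 fell, and among genes averaging 10 FPKM or more 0 rose and 1 fell. Olfml3, Cd36 and Marco average less than 10 FPKM, so that last fit did not test them. The 1 that fell in it was Cx3cr1 (adjusted p = 0.0184 in limma). The labels do not say whether equal replicate numbers pair libraries across the groups, and the values do not settle it. Deviations of same-numbered libraries correlated at 0.2 for number 1 and 0.202 for number 3. These were the highest among all pairs of an AQP4-IgG and a Control-IgG library. For number 2 the correlation was 0.009, and AQP4-IgG 2 correlated best with Control-IgG 1 (0.067). With the number as a replicate block 607 genes passed, with 3 members higher, 3 lower and 11 other myeloid genes. The members gained were Itgam (adjusted p = 0.0179 in limma) and Csf1r (adjusted p = 0.0162). The homeostatic minus activation and scavenger difference of -0.51 was -0.7 with a pseudocount of 0.1. Of 557 recomputed member values, 498 kept direction and side of the threshold, 20 lost the call, 8 gained it and 31 changed sign. Cx3cr1, Olfml3, Cd36 and Marco kept their sign in every fit. The sign changes were all in members that did not pass. Gpnmb was -0.0031 with median scaling, -0.00016 with a pseudocount of 0.1, -0.01 in limma-voom and -0.02 in limma-voom with quantile normalization and no robust variance. With 1 library left out, log2 fold changes ran from -0.1 to 0.04 for P2ry12, -0.09 to 0.07 for Gpnmb, -0.01 to 0.07 for Lpl, -0.05 to 0.1 for Fcgr3, -0.16 to 0.07 for Fcgr2b and -0.18 to 0.04 for Tyrobp. They ran from -0.02 to 0.15 for Laptm5, -0.04 to 0.14 for P2ry6, -0.12 to 0.11 for Aif1, -0.08 to 0.1 for Lyz2 and -0.03 to 0.17 for Cd68, and from -0.05 to 0.07 for Unc93b1, -0.06 to 0.06 for Ncf1 and -0.12 to 0.02 for Cybb. The cause was not tested. Depth limits Gpr34, Itgax, P2ry12, Aif1 and Marco, which rest on few reads.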
